A study of Mus musculus with 2 samples.

Results

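The genes described here are the Toll-like, NOD-like and C-type lectin receptors of the mouse, 61 of the 24203 named genes on the array. The rule for membership used gene names: it took every gene whose symbol in the array files began with Tlr or Clec and a digit, began with Nlr, or was Nod1 or Nod2, with Clec1b left out. This gave 11 Toll-like, 21 NOD-like and 29 C-type lectin genes. Tlr9, Nlrc4, Nlrp14, Clec3a and Clec10a had no row under those names and were not analysed here as members. The study compared LT-HSC (long-term haematopoietic stem cells, which sustain all blood lineages) from mice with and without WASH, an activator of the Arp2/3 complex that builds branched actin. Cells from femur marrow of C57/BL6 mice were sorted by flow cytometry, and their total RNA was labelled with Cy3 and hybridised to a NimbleGen mouse expression array. The control group was wild type and the other group was a WASH knockout; no further allele, promoter, Cre driver, age or number of pooled animals is given in the sources used here. Each genotype had 1 array, so the design has no replicates and no difference below has an error or a test.

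Toll-like receptors bind microbial lipids, proteins and nucleic acids at the cell surface or in endosomes and signal through TIR adaptors such as MyD88 to NF-κB and interferon regulatory factors. NOD-like receptors are cytosolic; some signal through RIPK2 to NF-κB and others assemble inflammasomes that activate caspase-1. C-type lectin receptors bind glycans or other ligands and signal through Syk or through inhibitory phosphatases, and in marrow many of them are carried by neutrophils, monocytes and macrophages. Stem and progenitor cells are also known to carry some Toll-like receptors.

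Levels are intensities on a linear scale, 1 value per array, and differences are log2 of knockout over control, so that a difference of 1 is 2-fold. Probes of random sequence gave a background of 71.3 on the control and 75.7 on the knockout array. A gene was in the detected range if it lay above its array's median, 137 on both arrays, on at least 1 array. Genes with several probe sequences are given by the brightest. Intensities of different genes rest on different probes and were not compared with each other. In all, 67.2% of genes were in the detected range, and so were 50.2% of 626 olfactory receptor genes, which are silent in most tissues; presence in this range is therefore no evidence of expression by itself. WASH itself, named ORF19 in the files and now Washc1, had 119 on the control and 107 on the knockout array, a difference of -0.15 below the detected range. Where its probes lie against the deleted part was not analysed here, so the gene did not check the labels. Of 16 stem cell markers 10 were in the detected range, among them Kit, Ly6a and Hoxa9, while Procr, Fgd5, Tek and Tcf15 were below background on both arrays. Transcripts of neutrophils and red cells were present as well: the summed intensity of 20 neutrophil and monocyte markers was 145741 on the control and 57932 on the knockout array. The 4 brightest probe sequences made up 84.5% of the control sum, and the other 16 markers summed to 22633 and 11312. The sum of 14 erythroid markers was 16380 and 83913.

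Of the 61 receptor genes 40 were in the detected range (65.6%), and 15 were at or below background on both arrays (24.6%), against 15.2% of all genes and 29.4% of olfactory receptor genes. Within the detected range 7 members were at least 2-fold lower in the knockout, where 7.30% of all genes were, and 1 was at least 2-fold higher, where 6.42% of all genes were. The 7 were 17.5% of the 40, and the 1 was 2.50%. The lower genes were Clec12a, Clec5a, Clec2f, Clec2g, Clec4a3, Nlrp9c and Tlr4, and the higher gene was Clec2e. The other 32 lay within 2-fold; by sign 18 of the 40 were higher and 22 lower, and their median difference was -0.13, beside 0.03 for all detected genes. Among the 18 members above the 75th percentile of an array, 2 were 2-fold lower, Clec12a and Clec5a, and 0 were 2-fold higher, where 7.13% and 5.69% of all such genes were. Of these, Clec5a was above that percentile only on the control array. The remaining 5 lower members were at 1.34 times background or less on the knockout array. They were in the detected range only through the control array, and Clec2e only through the knockout array. Such counts thus rest on the array where each gene was high, under a filter applied to all genes alike. Counts use the measured values, but Tlr4 and Clec4a3 were below background on the knockout array, so for them only bounds short of 2-fold hold. With values below background raised to it, 5 members (12.5%) were 2-fold lower, Clec12a, Clec5a, Clec2f, Clec2g and Nlrp9c, beside 7.01% of all genes.

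**Figure D1:**
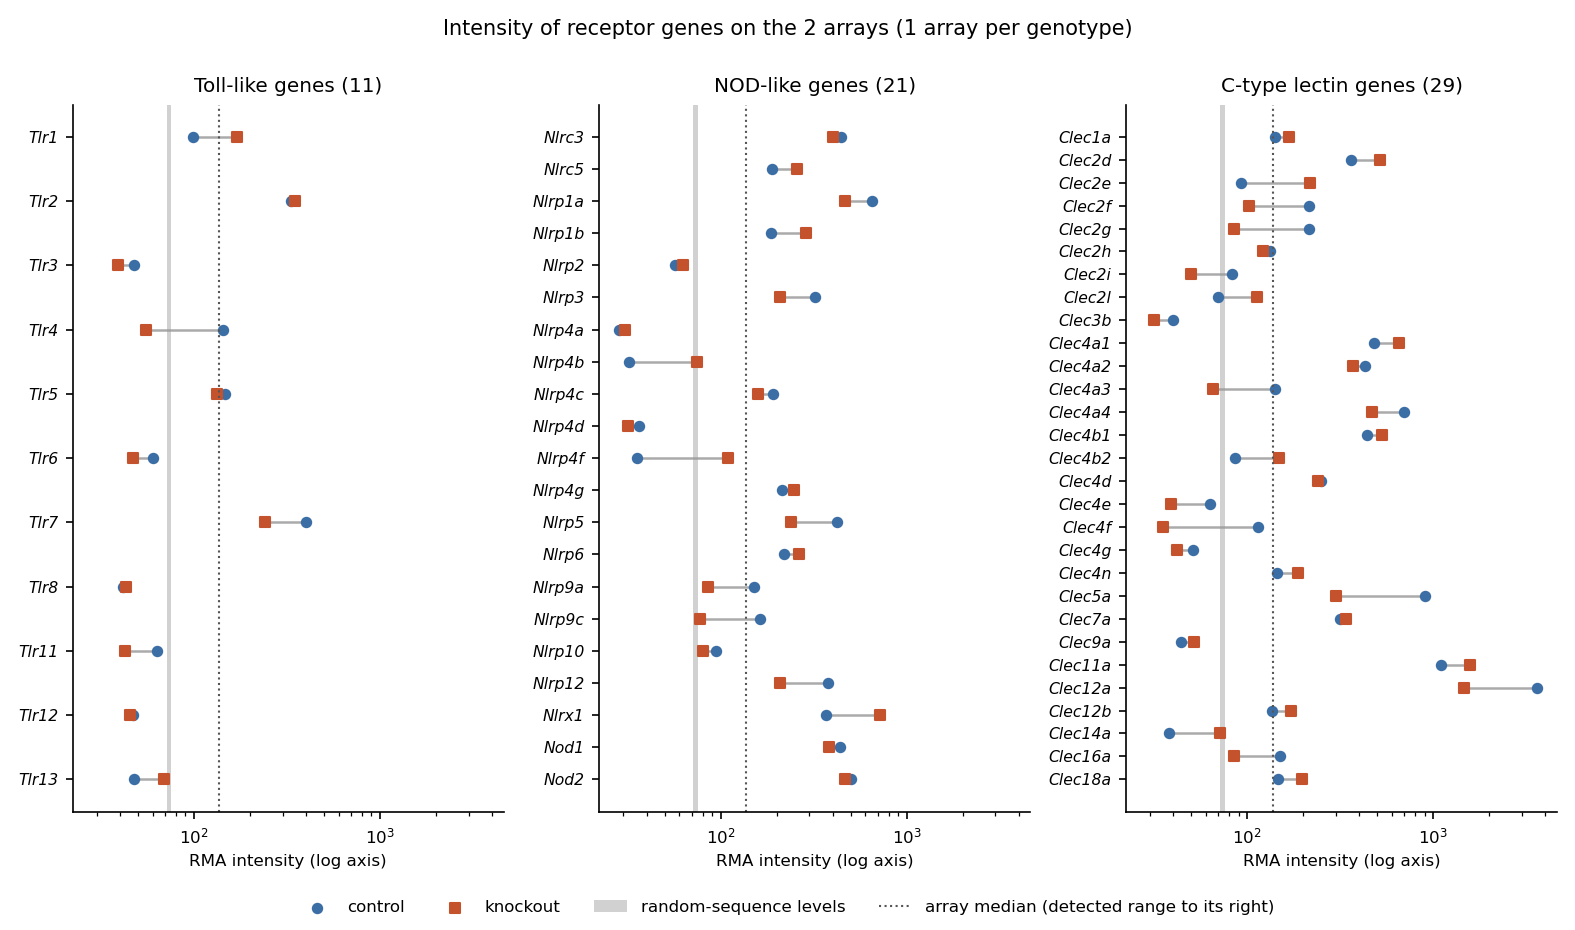
Intensity (log axis) of each receptor gene on the control array (circles) and the knockout array (squares), 1 array per genotype and no error bars, in 3 panels for the 11 Toll-like, 21 NOD-like and 29 C-type lectin genes. The grey band marks the random-sequence levels of 71.3 and 75.7 and the dotted line the array median; 6 Toll-like genes lie at or below the band on both arrays, and Clec12a and Clec5a show wide gaps well above it.

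**Figure D2:**
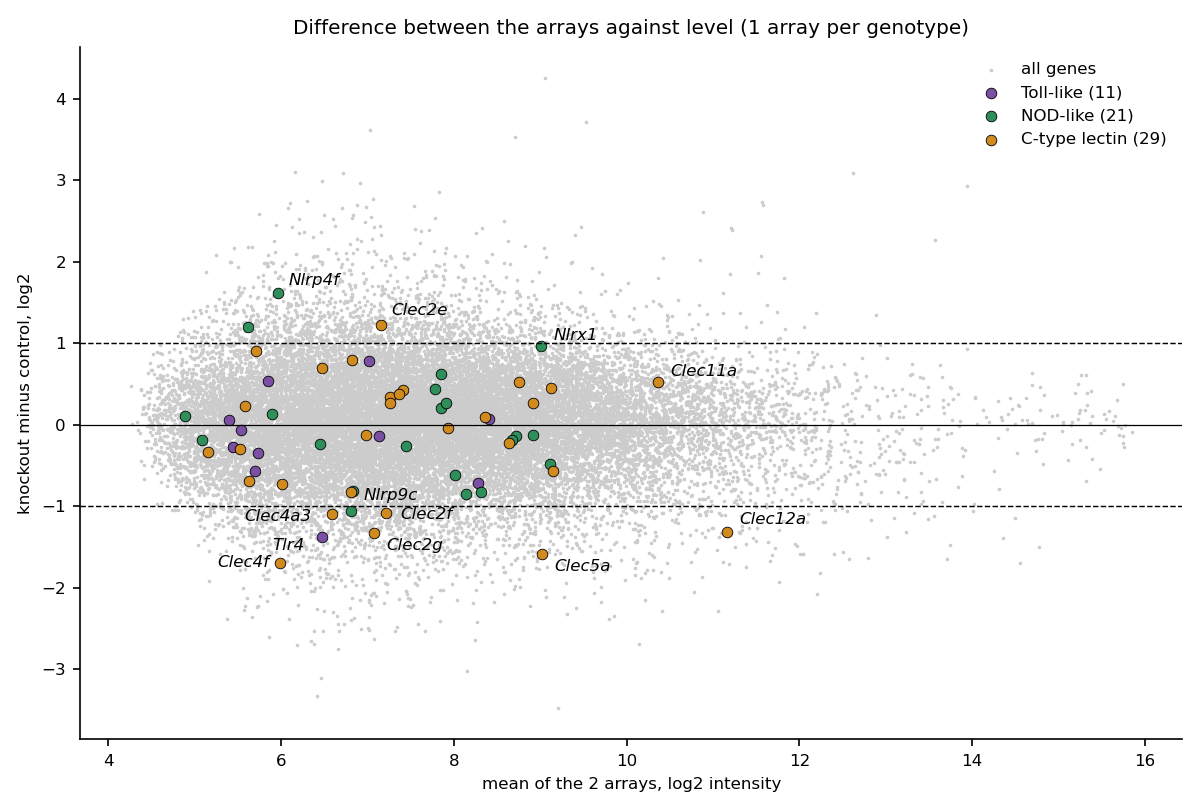
Difference between the arrays (knockout minus control, log2) against the mean level (log2 intensity) for all 24203 genes in grey and the 61 receptor genes in colour, with dashed lines at 2-fold. Clec12a at -1.32 and Clec5a at -1.59 are the members below the lower line on the right of the plot, and most members past 2-fold lie on its dim side.

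Among the Toll-like genes, signals above background were found mainly for receptors of the cell surface: 4 of 5 surface genes and 1 of 6 endosomal genes were in the detected range. The 5 detected genes had a median difference of -0.14, and 0 were 2-fold higher. The 1 measured as 2-fold lower (20%, beside 7.30% of all genes) was Tlr4, from a knockout value below background. Tlr2, which with Tlr1 or Tlr6 senses bacterial lipoproteins, had an intensity of 332 on the control and 348 on the knockout array. The arrays were thus close together for Tlr2, at 4.66 and 4.60 times background and a difference of 0.07. Its partner Tlr1 had 99.1 and 171, a difference of 0.78, whereas Tlr6 was below background on both arrays with 60.3 and 47.2. Tlr5, the flagellin receptor, had 148 on the control and 134 on the knockout array, a difference of -0.14.

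Tlr4, the receptor for lipopolysaccharide (MM9, chr4:66488632-66502945), had 144 on the control and 55.2 on the knockout array. The knockout value lay below background, so the gene was at least 1.90-fold lower there, a bound short of 2-fold. Its measured difference of -1.38 rests on 1 sequence of 3 probes, and the control value was 2.02 times background. Ly96, the co-receptor that carries lipopolysaccharide to Tlr4, was below background on the control array, and it was at least 1.22-fold higher in the knockout, outside the detected range; Cd14 was below background on both, with 44.3 and 50.1.

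Tlr7, the endosomal receptor for single-stranded RNA, had 400 on the control and 242 on the knockout array, 5.60 and 3.20 times background. The knockout array was the lower by -0.72 on the log2 scale, under the 2-fold size, and the other 2 Tlr7 sequences were also lower, at -0.40 and -0.15, though both were below background. The other endosomal receptors gave no signal above background on either array. Tlr3, the double-stranded RNA receptor, had 47.8 and 39.3, and Tlr8 had 41.4 and 43.1. Tlr11 and Tlr12, which recognise profilin of protozoa, had 63.3 and 42.5 and 47.2 and 45.3. Tlr13, a receptor for bacterial ribosomal RNA, had 47.8 and 69.2. These 5 genes and Tlr6 make up the 6 Toll-like genes for which no difference can be given.

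NOD-like genes were in the detected range in 15 of 21 cases, and 7 exceeded the 75th percentile of an array. The median difference of the 15 was -0.19. Of them 1 was at least 2-fold lower (6.67%) and 0 were higher, beside 7.30% and 6.42% of all genes. All 5 genes of the group with CARD or regulatory functions were detected, as were 5 of 6 inflammasome-type genes and 5 of 10 genes of the germ cell and embryo type.

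Nod1, the sensor of peptidoglycan fragments with diaminopimelic acid, had 437 on the control and 384 on the knockout array. Nod2, the muramyl dipeptide sensor, had 505 and 464. Both were slightly lower on the knockout array, at -0.19 and -0.12, and both stood at least 5.07 times above background on each array. The second Nod2 sequence was below background on both arrays, with 43.5 and 42.4. Nlrc3, an inhibitor of several innate signals, had 443 and 400 (-0.15), and its dimmer sequence differed the other way at 0.33. Nlrc5, the transactivator of MHC class I genes, had 189 and 257 (0.44).

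Nlrx1, a mitochondrial member of the family, had 371 on the control and 721 on the knockout array. The knockout array was the higher by 0.96, just inside 2-fold. Its other sequences did not share this difference: the second had 177 on both arrays, and the one below background differed by 0.05. The difference of 0.96 was thus found in the brightest Nlrx1 sequence only. Over the array the SD between sequences of 1 gene, among sequences in the detected range, was 0.657.

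Nlrp3, the sensor of the best known inflammasome, had 320 on the control and 209 on the knockout array. All 3 of its sequences were lower on the knockout array by similar amounts, from -0.64 to -0.58, so the sequences were close although the difference was under 2-fold. Nlrp12, a regulator expressed in neutrophils and other myeloid cells, had 377 and 210 (-0.85), but its 5 sequences ran from -0.85 to 0.45. Nlrp1a, whose activation in haematopoietic progenitors is known to cause their death by pyroptosis, had 655 and 468 (-0.49), with sequences from -0.93 to 0.44. Nlrp1b, the target of anthrax lethal toxin, had 186 and 287 (0.63). Nlrp6, best known from intestinal epithelium, had 220 and 265 (0.27), with a second sequence at -0.42. Nlrp10, a family member without leucine-rich repeats, had 94.7 and 80.1 and was not in the detected range. Nlrp3 was thus the inflammasome-type gene with several sequences that all differed in 1 direction.

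The germ cell and embryo type includes Nlrp5, a maternal factor of the oocyte. It had 424 on the control and 240 on the knockout array (-0.82), and its other sequence had 309 and 263 (-0.23). Both Nlrp5 sequences were thus above background on both arrays in a marrow sample. Nlrp9c, of a small group of genes on chromosome 7 (MM9, chr7:27149907-27179257), had 162 and 78.0, a difference of -1.06. Its knockout value was 1.03 times background, and its other sequence was below background on both arrays. Nlrp9a, its neighbour in name, had 151 and 85.9 (-0.81). Nlrp4c had 191 and 159 (-0.26) with a second sequence at -1.17, and Nlrp4g had 214 and 247 (0.21). Nlrp2, Nlrp4a, Nlrp4b and Nlrp4d were at or below background on both arrays. Nlrp4f was below background on the control array, and it was at least 1.53-fold higher in the knockout, outside the detected range, and its other 2 sequences were below background. The Nlrp4, Nlrp9 and Nlrp1 genes have near copies, and which copies their probes can bind was not analysed here.

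**Figure D3:**
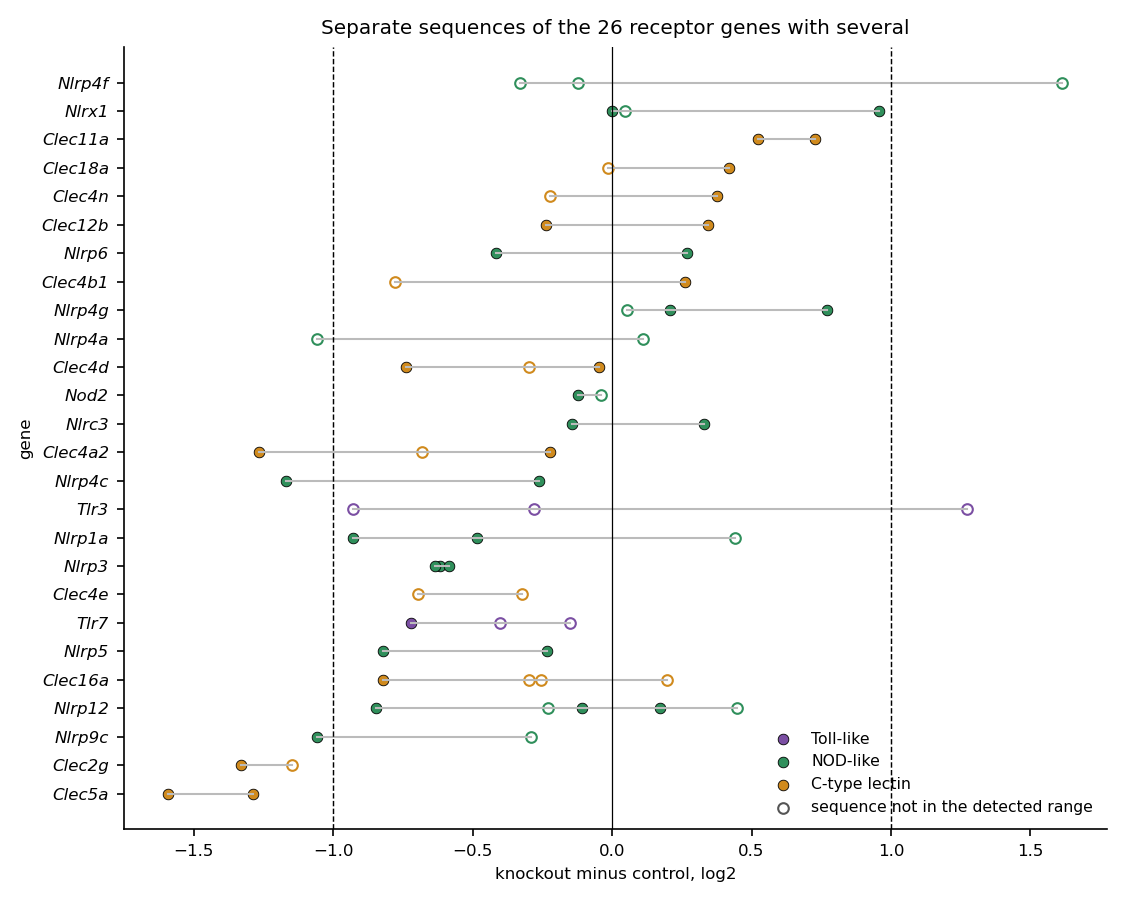
Difference between the arrays (knockout minus control, log2) for each probe sequence of the 26 receptor genes that have several sequences, 1 line of points per gene. Open points are sequences not in the detected range. Of the 22 genes in the detected range, 10 have all sequences lower on the knockout array, among them Clec5a and Nlrp3. Another 2 have all higher, and 10 have sequences on both sides of 0.

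C-type lectin genes made up 6 of the 8 members past 2-fold and 20 of the 40 in the detected range. The family had 29 genes, and 9 exceeded the 75th percentile. Of the 20, 5 were measured as 2-fold lower (25%) and 1 as 2-fold higher (5%), beside 7.30% and 6.42% of all genes. Among the lower genes, Clec4a3 had a knockout value below background. By sign 11 were higher and 9 lower, with a median difference of 0.18. That median turned negative with the mean of each gene's sequences (-0.26), in the smaller series table (-0.046) and without the filter on dim genes (-0.046).

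Clec12a, an inhibitory receptor for uric acid crystals found on granulocytes and monocytes (MM9, chr6:129300286-129314434), had 3627.5 on the control and 1454 on the knockout array. Both values were far above background, at 50.9 and 19.2 times its level. The difference of -1.32 was 2.49-fold lower on the knockout array, from 1 sequence of 3 probes. Clec5a, a receptor that pairs with the adaptor DAP12 on neutrophils and monocytes (MM9, chr6:40524896-40535804), had 902 on the control and 299 on the knockout array. The knockout array was lower by a difference of -1.59, 3.01-fold. The second Clec5a sequence had 140 on the control array and was below background on the knockout array, so it was at least 1.85-fold lower. In samples of sorted cells measured in bulk, fewer cells of a type and less RNA per cell cannot be told apart. Neutrophil and monocyte transcripts were mostly lower as well: of 20 such markers 17 were in the detected range, 13 of these lower and 4 higher, with a median of -0.87. Of them 6 (35.3%, beside 7.30% of all genes) were at least 2-fold lower, S100a8, S100a9, Lcn2, Ngp, Chi3l3 and Fcnb. Csf1r was the 1 at least 2-fold higher (5.88%, beside 6.42% of all genes), with 248 and 563. The other 2 Csf1r sequences were lower, to -0.26. Itgam, also counted as higher, had 2 of 3 sequences lower, to -1.73. None of the 20 was below background on both arrays. Markers of mast cells, basophils and eosinophils were in the detected range in 4 of 7 cases, all 4 lower, with a median of -1.01. Of these 4, Prg2 and Ear1 were at least 2-fold lower (50%, beside 7.30% of all genes). Summed intensities of the 7 were 5826 and 3070. Of the 3 not in the detected range, Fcer1a and Cpa3 were below background on both arrays. The part of these cells in the Clec12a and Clec5a differences was not tested.

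The other genes of that group, relatives of the β-glucan receptor Dectin-1, differed less. Clec7a, which encodes Dectin-1, had 317 and 339, close on the 2 arrays at 0.10. Clec12b, an inhibitory receptor, had 136 and 173 (0.34), and its other sequence differed the opposite way at -0.24. Clec1a, a receptor for fungal melanin, had 140 and 168 (0.27). Clec9a, the dendritic cell receptor for exposed actin filaments, was below background on both arrays with 44.3 and 51.8. Macrophage and dendritic cell markers were in the detected range in 8 of 12 cases, with a median of 0.17 and summed intensities of 10728 and 11716.

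Sequence upstream of the start is shown for 3 lectin genes, Clec12a, Clec5a and Clec11a. Clec12a and Clec5a were lower on the knockout array, and both Clec11a probe sequences were higher. By their brightest probe sequence Clec12a and Clec11a had high signal on both arrays, at 19.2 and 20.8 times background on the knockout array. Clec5a was high on the control array only, at 12.7 times background, and had 3.96 times background on the knockout array. The sequences are the 250 bases before the RefSeq start on GRCm38.p6, in the direction of the gene, with capitals marking matches on either strand to GAGGAA, the core box of the myeloid factor PU.1, and to TTGCNNAA, a C/EBP-type site. The windows are chr6:129349994-129350243 on the plus strand for Clec12a, chr6:40585806-40586055 on the minus strand for Clec5a and chr7:44306960-44307209 on the minus strand for Clec11a.
Clec12a: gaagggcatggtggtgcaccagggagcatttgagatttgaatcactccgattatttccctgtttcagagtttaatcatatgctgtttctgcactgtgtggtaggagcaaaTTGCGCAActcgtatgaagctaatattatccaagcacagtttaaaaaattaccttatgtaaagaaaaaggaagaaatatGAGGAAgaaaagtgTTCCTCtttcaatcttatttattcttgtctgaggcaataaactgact
Clec5a: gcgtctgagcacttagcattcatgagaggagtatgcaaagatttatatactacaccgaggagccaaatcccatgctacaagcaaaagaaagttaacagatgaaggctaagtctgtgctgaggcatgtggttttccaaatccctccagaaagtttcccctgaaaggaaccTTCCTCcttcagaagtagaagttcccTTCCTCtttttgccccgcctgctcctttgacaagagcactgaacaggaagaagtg
Clec11a: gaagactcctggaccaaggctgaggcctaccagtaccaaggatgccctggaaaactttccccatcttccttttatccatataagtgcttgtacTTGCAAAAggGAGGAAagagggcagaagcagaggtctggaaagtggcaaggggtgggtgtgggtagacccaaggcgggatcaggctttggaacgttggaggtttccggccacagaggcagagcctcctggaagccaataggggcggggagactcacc
Clec12a held 2 boxes of the PU.1 type, beginning 61 and 47 bases before the start, and 1 C/EBP-type match at 140 bases. Clec5a held 2 boxes of the PU.1 type, at 81 and 55 bases, and 0 C/EBP-type matches. Clec11a held 1 of each, at 147 and 157 bases, so all 3 genes held the PU.1-type box whichever way their intensity differed. The marked matches do not overlap. Of the 61 members 50 matched the RefSeq promoter table, with 62 promoters. GAGGAA was in 37.1% of these 62 and in 23.3% of all 32851 promoters, and TTGCNNAA was in 16.1% and 9.56%. TGANTCA, an AP-1-type site, was in 16.1% and 6.75%, and TATAAA in 14.5% and 12.4%. These are matches of letters, and binding was not measured.

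Genes of the Clec4 cluster encode receptors of macrophages, dendritic cells and neutrophils, and 8 of 9 were in the detected range. Of these 8, 4 were higher and 4 lower on the knockout array. Clec4a4, an inhibitory receptor of dendritic cells, had 693 and 468 (-0.56). Clec4a1 had 479 and 654 (0.45). Clec4a2, the mouse gene closest to human DCIR, had 430 and 369 (-0.22), and its 3 sequences were all lower, to -1.27. Clec4a3 (MM9, chr6:122902532-122919896) had 141 on the control array and 65.6, below background, on the knockout array. It was therefore at least 1.86-fold lower, with a measured difference of -1.10 from 1 sequence. Clec4b1 had 441 and 528 (0.26), while its other sequence, just below background on the knockout array, was at least 1.71-fold lower, and Clec4b2 had 85.7 and 149 (0.80). Clec4d, a partner of Mincle in sensing mycobacterial glycolipid, had 248 and 241 (-0.05), and all 3 of its sequences were lower, to -0.74. Clec4n, which encodes the mannan receptor Dectin-2, had 145 and 187 (0.37), and its sequence below background differed by -0.22. Clec4e, which encodes Mincle itself, was below background on both arrays with 63.1 and 39.0. The Clec4a and Clec4b genes are close relatives, and probes that bind more than 1 of them were not excluded here.

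The Clec2 group includes ligands of the NK receptors of the Nkrp1 family, and 4 of 7 were in the detected range. Clec2d, the ligand of an inhibitory Nkrp1 receptor, had 360 on the control and 518 on the knockout array, a difference of 0.52. Clec2e (MM9, chr6:129042015-129050921) had 93.1 and 217. It was the 1 member at least 2-fold higher, at 1.22, from a control value 1.31 times background. Clec2f (MM9, chr6:128964151-128970537) had 216 and 102 (-1.08), and Clec2g (MM9, chr6:128884408-128933726) had 214 and 84.9 (-1.33). The knockout values of this pair were 1.34 and 1.12 times background, and the second Clec2g sequence, below background on the knockout array, was at least 1.25-fold lower. Clec2h had 132 and 122, under both array medians. Clec2i was at least 1.09-fold lower and Clec2l at least 1.58-fold higher, each with 1 array below background and outside the detected range. Members of the group on chromosome 6 thus differed in both directions, and they too are close in sequence.

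Lectins of other kinds were mostly dim. Clec11a encodes a secreted growth factor of marrow stroma that acts on skeletal and haematopoietic progenitors. It had 1097 on the control and 1576 on the knockout array, 15.4 and 20.8 times background. The knockout array was higher by 0.52, under 2-fold, and its second sequence was higher by 0.73. Clec16a, an endosomal regulator of mitophagy, had 150 and 84.6 (-0.82), with 4 sequences from -0.82 to 0.20. Clec18a had 147 and 197 (0.42). Clec4f, the Kupffer cell receptor, had 114 and 35.2 and was at least 1.51-fold lower, outside the detected range. Clec3b (tetranectin), Clec4g of liver endothelium and Clec14a of blood vessels were below background on both arrays. The lectins of Kupffer cells and endothelium were thus not detected here.

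Most lectin genes lie together, 23 of the 29 on chromosome 6, and by their brightest sequence neighbours did not move as 1 block. From Clec4a1 to Clec4e a group of 9 genes spans MM9 chr6:122871875-123239847, with 8 in the detected range, 4 higher and 4 lower, from -1.10 to 0.80. From Clec2h to Clec7a a group of 11 genes spans chr6:128612426-129422781, with 8 in the detected range, 5 higher and 3 lower, from -1.33 to 1.22. Clec12a and Clec12b, which stand side by side there, differed by -1.32 and 0.34, but the other Clec12b sequence was lower, at -0.24.

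**Figure D4:**
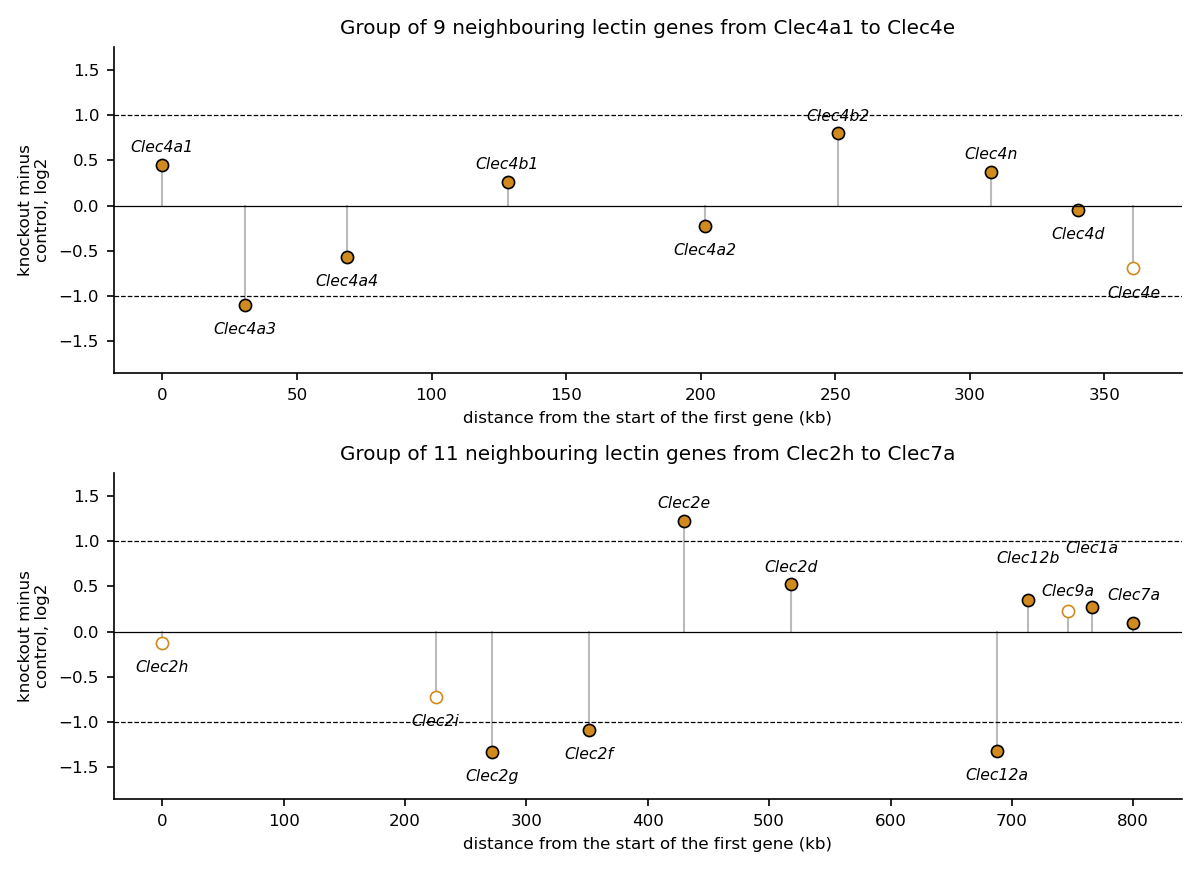
Difference between the arrays (knockout minus control, log2) of the lectin genes in the 2 groups on chromosome 6, against the distance in kb from the start of the first gene. Filled points are in the detected range and open points are not; in both groups points lie above and below 0, from -1.10 to 0.80 in the upper panel and from -1.33 to 1.22 in the lower.

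Downstream of the receptors, lists of their signalling genes held 103 measured genes, with 78 in the detected range. Of these 12 were at least 2-fold lower (15.4%) and 3 at least 2-fold higher (3.85%), beside 7.30% and 6.42% of all genes, and the median was -0.20. By sign 28 were higher and 50 lower.

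By their brightest sequence the TIR adaptors next to the Toll-like receptors stayed within 2-fold, from -0.76 to 0.83. Myd88, which serves nearly all Toll-like receptors, had 189 on the control and 177 on the knockout array (-0.09). Tirap, which bridges MyD88 to Tlr2 and Tlr4, had 1136 and 814 (-0.48), with its other sequence at 0.51. Ticam1, the adaptor of Tlr3 and Tlr4, had 120 and 155 (0.37). The wider differences were those of Sarm1, a regulator of the TIR pathway, with 244 and 435 (0.83, other sequences down to -0.92), Ticam2, the bridge from Ticam1 to Tlr4, with 641 and 378 (-0.76), and Pik3ap1 with 498 and 336 (-0.57). All 6 TIR adaptors were in the detected range and 0 reached 2-fold in either direction by their brightest sequence. The same held for the 15 detected kinases and ubiquitin ligases after them, with a median of -0.03. Dimmer sequences did pass 2-fold, down to -1.42 for Pik3ap1, -1.62 for Chuk and -1.06 for Irak1. Others reached 1.64 for Traf6, 1.44 for Ikbkb and 1.33 for Peli2. Ripk2, the kinase of Nod1 and Nod2, was below background on both arrays with 68.0 and 66.9. Card9, which links Syk to NF-κB, had 231 and 207 (-0.16). Syk, the kinase of Dectin-1 and Mincle, had 125 and 149 (0.25), with another sequence at -1.02.

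Of 11 detected genes of C-type lectin signalling 5 were at least 2-fold lower (45.5%) and 0 higher, beside 7.30% and 6.42% of all genes. The median was -0.85, and by sign 4 were higher and 7 lower. Fcer1g, the signalling chain of Dectin-2 and Mincle, had 481 on the control and 223 on the knockout array (-1.11). Tyrobp, which encodes DAP12, the partner of Clec5a, had 615 and 342 (-0.85), under 2-fold. Fcer1g and Tyrobp were thus lower on the array on which Clec5a was lower. Hcst, of the same list, was higher on the knockout array with 463 and 578 (0.32). All 3 Hcst sequences were higher, from 0.32 to 0.53. Ptpn6, the phosphatase SHP-1 recruited by Clec12a, had 1092 and 491 (-1.15), with its other sequence below background on both arrays. Ptpn11, the related phosphatase SHP-2, had 353 and 136 (-1.38), but its other 2 sequences differed by -0.54 and -0.06. Prkcd, a kinase between Syk and Card9, had 3078 and 1255 (-1.29), and Vav1, an exchange factor after Syk, had 4776 and 1768 (-1.43). For Prkcd 5 of 7 sequences were lower and for Vav1 3 of 5. The dimmer Vav1 sequences were at -0.47, 0.53, 0.24 and -0.55, the last below background on both arrays. These genes serve many receptors of blood cells besides lectins, and the share of neutrophil transcripts in their difference was not tested.

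Of 12 detected inflammasome genes 3 were at least 2-fold lower (25%) and 0 higher, beside 7.30% and 6.42% of all genes. The median was -0.51. Pycard, the adaptor ASC that joins Nlrp3 to caspase-1, had 373 on the control and 127 on the knockout array (-1.56). Casp4, the sensor of cytosolic lipopolysaccharide, had 1076 and 263 (-2.03), with a second sequence at -0.28 and the last below background on both arrays. Txnip, a binding partner of Nlrp3, had 535 and 266 (-1.01), with its other sequence at -0.16. Pycard, with 1 sequence, thus differed in the same direction as the 3 Nlrp3 sequences. The gene of caspase-1 itself, Casp1, was close on the arrays with 215 and 203 (-0.08). Il1b, a product of the inflammasome, had 287 and 565 (0.98), with 3 sequences from 0.01 to 0.98. By sign 10 of the 12 were lower and 2 higher.

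Among 10 detected transcription factors and inhibitors, Rel, the c-Rel subunit of NF-κB, had 249 and 114 (-1.12) and Nfkb1, its p105 and p50 subunit, had 1029 and 514 (-1.001), both at least 2-fold lower. Nfkb1 was just past that size and fell short of it under quantile normalization (-0.97), removal of an intensity trend (-0.99) and the offset (-0.94). Rel and Nfkb1 made up 20% of the 10, beside 7.30% of all genes at least 2-fold lower. The list's median was -0.26. Irf3, which Toll-like and cytosolic sensors use to induce interferon, had 170 and 494 (1.54), and its other sequence, below background on the control array, was at least 1.80-fold higher. Of 6 detected genes of NOD signalling, with a median of 0.06, 2 were at least 2-fold lower (33.3%, beside 7.30% of all genes) and 0 higher. Malt1, the protease partner of Bcl10, was 1 of them and had 638 and 140 (-2.19), with its other 2 sequences below background on both arrays, and Erbb2ip, a Nod2-binding scaffold protein, had 939 and 340.5 (-1.46), with its other sequence at 0.20. Of 7 detected co-receptors and chaperones, with a median of -0.60, 1 was at least 2-fold higher (14.3%, beside 6.42% of all genes) and 0 lower. Cd36, the scavenger receptor that helps Tlr2, had 121 and 356 (1.56), with a second sequence higher by 1.12 and the last below background on both arrays. Cd36 is also carried by red cell precursors, whose markers were in the detected range in 13 of 14 cases, with a median of 1.76. Of these markers 9 (69.2%, beside 6.42% of all genes) were at least 2-fold higher. The part of red cell precursors in the Cd36 difference was not tested. Among 11 other detected pattern receptors, with a median of 0.10, 1 was at least 2-fold higher (9.09%, beside 6.42% of all genes) and 0 lower. Klrb1c, the receptor NK1.1 of the Nkrp1 family, had 309 and 752 (1.28), with sequences down to -1.24. With the mean of each gene's sequences in place of the brightest, the 9 lower genes with several sequences all fell short of 2-fold, and the 3 that remained, Rel, Pycard and Fcer1g, have 1 sequence each, which averaging cannot change. Of the higher genes Cd36 (1.27) and Irf3 (1.43) remained and Klrb1c did not.

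**Figure D5:**
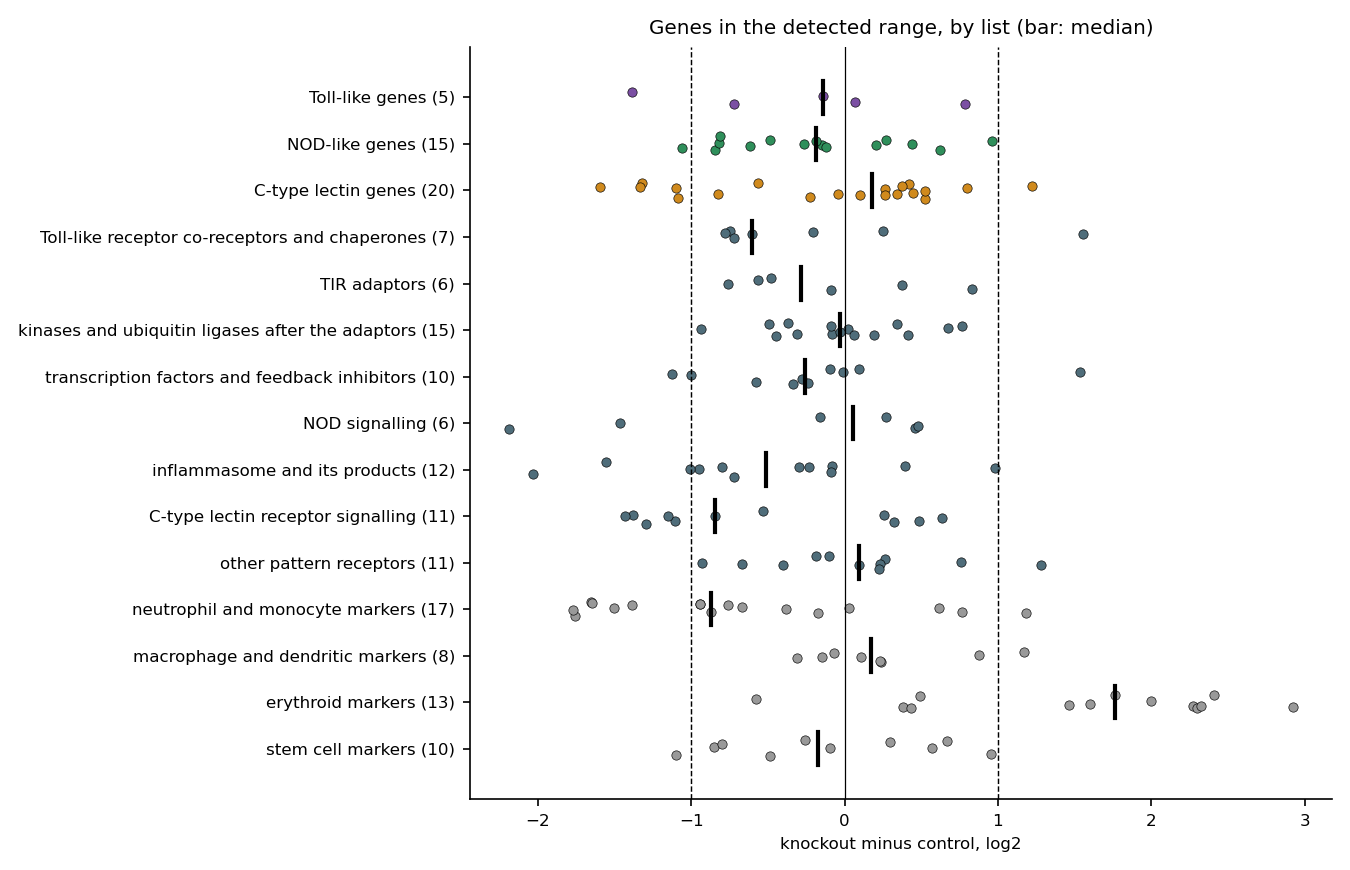
Difference between the arrays (knockout minus control, log2) of every gene in the detected range, by receptor family, signalling list and cell type marker list, with the number of genes in brackets, a bar at each median and dashed lines at 2-fold. The medians of the receptor families lie at -0.14, -0.19 and 0.18, that of lectin signalling at -0.85, and those of neutrophil and erythroid markers at -0.87 and 1.76.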

How the data were processed

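The authors deposited 1 linear intensity per sequence for each array, made with RMA per the submitters' processing notes (version not given in the sources used here); each member sequence had 3 probes, and coordinates are MM9, per the file headers. RMA draws arrays to a common distribution, which can hide a shift of most genes. Here log2 differences were computed from the intensities the authors deposited, with no further scaling (Python 3.11.15, numpy 2.4.6, pandas 2.3.3, statsmodels 0.14.6, matplotlib 3.10.9). Of several sequences of a gene the brightest, by its mean log2 over both arrays, was used. The detected range was above percentile 50 of an array on at least 1 array, and the size used was 2-fold. A value at or below the level of 5000 random-sequence probes gave only a bound. No sample column went unmapped (0). RefSeq tables (GRCm38.p6) gave symbols and promoters.

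With 1 array per genotype no test was run, and depth is not defined for arrays: their number, and closeness to background, limit the precision. Well known members were named whatever their values, as were members past 2-fold or above percentile 75, signalling genes past 2-fold and 7 adaptors; other members were named after their values were seen. Members and lists were chosen with earlier results of these data known. Alternatives were the authors' series table of 34218 sequences (46 members; largest gap 0.0412), other scalings, an offset of 50, other choices among sequences, other filters and other fold sizes. Raising values to the random level was chosen after seeing the data. Steps were tested on simulated data.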

Additional observations from a re-analysis of the deposited data

How the results depend on the processing

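No paired analysis was possible because only 1 array was made per genotype. Likewise no array could be left out, and every difference may hold variation between animals, sorts and arrays as well as between genotypes. Centring the arrays, quantile normalization, removal of an intensity trend and a filter at 2 times the random level kept the counts of members and signalling genes within 1.5 times those reported. The members at least 2-fold lower (7, 17.5% beside 7.30% of all genes) were 4 in the series table (14.8% beside 7.20%), 2 with an offset of 50 (5% beside 4.53%), 2 with the filter at percentile 75 (11.1% beside 7.13%), 13 at 1.5-fold (32.5% beside 18.3%) and 1 at 3-fold (2.50% beside 1.73%). With the offset and at 3-fold the members' share was thus near that of all genes. Raised to the random level they were 5. Those at least 2-fold higher (1, 2.50% beside 6.42% of all genes) were 0 with the offset, where 3.53% of all genes were. They were 0 with the filter at percentile 75 (beside 5.69%) and 3 without a filter (4.92% beside 5.95%). At 1.5-fold they were 5 (12.5% beside 18.5%) and at 3-fold 0 (beside 1.49%). Members in the detected range (40) were 26 with the dimmest sequence, 18 with the filter at percentile 75 and 61 without a filter. Signalling genes lower (12) were 3 with the mean of sequences, 6 with the dimmest sequence, 24 at 1.5-fold and 2 at 3-fold. Of all genes 5.78%, 9.08%, 18.3% and 1.73% were lower in these settings. Signalling genes higher (3) were 1 with the dimmest sequence, 9 at 1.5-fold and 0 at 3-fold. Of all genes 7.44%, 18.5% and 1.49% were higher there. The lectin median of 0.18 turned to -0.046 in the series table, -0.26 with the mean of sequences and -0.046 without a filter. Clec5a was measured past 2-fold lower under every alternative run, and Clec12a under every one but the 3-fold size. Clec12a has 1 sequence, so other choices among sequences could not change its value, and filters change no values. With the dimmest sequence the Clec5a difference (-1.29) came from a knockout value below background, where only at least 1.85-fold lower holds. Over the 61 members and 8 alternatives that can alter single differences, 315 of 473 values changed at all. Of these, 20 changed by more than the spread between sequences of 1 gene (0.657). Smaller changes that crossed 0 were not counted, such as Clec12b, at 0.34 as reported and -0.24 with the dimmest sequence. Nlrp4f, measured at 1.61 from a control value below background, turned to -0.12 in the series table and -0.33 with the dimmest sequence.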

Other observations

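Lectin genes that the array files list under other names were kept out of the counts above, 3 genes with 5 sequences. Clec10a, a galactose-binding receptor of macrophages listed as Mgl1, had 513 on the control and 657 on the knockout array in its brightest sequence, a difference of 0.36. Its second sequence had 247 and 400 (0.69), while the dimmest had 148 on the control array and was below background on the knockout array, at least 1.95-fold lower. Clec2m, listed as 4922502D21Rik, had 211 and 463, higher on the knockout array by 1.13. Clec2j, listed as LOC677440, had 237 and 231 (-0.04). These genes were chosen after the members' values were seen.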
